A study of Mus musculus with 9 samples.

Results

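The 36 genes described here are a list of myelin and Schwann cell genes, and 35 of them were measured, out of 18193 genes on the array. Members were taken by gene symbol, and each gene was represented by its probe set (a group of probes for 1 transcript) with the highest mean over the 9 arrays; Prx, which encodes the peripheral myelin protein periaxin, was not analysed here. The list was put together with values of these arrays in view, above all the difference between the gates R3 and R2, so that difference is given as a description with no test. Cells of 3 mice, numbered 2, 4 and 5, were taken from the back skin at postnatal day 2 and sorted into 3 gates, with 1 array per mouse and gate. Gate R3 is GFP+CD133+, assigned by the labels to dermal papillae of guard, awl and auchene hairs. Gate R2 is GFP-CD133+, assigned to papillae of zigzag hairs, and gate R1 is GFP-CD133-, the rest of the dermis with papilla cells left out. All mice carried the same GFP reporter, known from work with these gates as a reporter of Sox2; strain and sex are not given in the labels. Sox2 is known from some papillae and also from immature Schwann cells and Merkel cells, and CD133 (Prom1) is a surface protein of many progenitor cells, so neither marker belongs to papilla cells alone.

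Schwann cells are the glia of peripheral nerves. They descend from the neural crest, pass through a precursor and an immature stage, and then either wrap a single large axon in myelin or hold several small axons in unmyelinated bundles. Myelination is known to run on axonal neuregulin and its ErbB receptors, on the factors Sox10, Pou3f1 and Egr2, and on a large supply of galactolipids and of a few abundant membrane proteins; in newborn skin, nerve fibres with their Schwann cells run through the dermis and reach the hair follicles.

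The values are log2 expression values normalized by the RMA method, so a difference of 1 is a 2-fold difference. The array medians lay between 6.13 and 6.20. RMA gives no detection call, and as a guide to background the 95th percentile of 44 probe sets for olfactory receptors was used, which lay between 5.14 and 5.46 on the 9 arrays; a level under it is called dim here. Levels of different probe sets are not compared. The number of arrays, 3 per gate, limits the precision. Prom1 averaged 10.32 ± 0.19 in R3 and 11.85 ± 0.04 in R2, against 7.43 ± 0.36 in R1 (SD, n = 3 arrays each). Sox2 averaged 10.67 ± 0.12 in R3 and 7.08 ± 0.61 in R2, against 4.19 ± 0.34 in R1. Prom1, which encodes CD133, was thus higher in both CD133+ gates than in R1, and lower in R3 than in R2. Sox2 was highest in R3, and it was also higher in R2 than in R1, although both are GFP- gates.

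Most of the 35 genes were highest in R3, and the gates R2 and R1 lay lower and closer to each other. Against R2, 35 of 35 had a higher mean in R3, with a median log2 difference of 1.68, where the median of all genes was -0.01. The R3 arrays lay above the R2 arrays without overlap for 27 members and below them for 0 members; over all genes these shares were 9.98% and 12.8%. At an adjusted p under 0.05 (limma, all genes), 23 members were higher in R3 than in R2 and 0 were lower; over all genes 5.03% were called, 1.97% higher and 3.06% lower, and nothing is read from this comparison because the members were listed with it in view. Of the 35 differences, 6 were over 16-fold, 11 between 4-fold and 16-fold, 4 between 2-fold and 4-fold, and 14 under 2-fold.

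Against R1, the dermal pool, 22 of 35 members were called higher in R3 and 0 lower (limma, adjusted p under 0.05, Benjamini-Hochberg over all genes). Over all genes 18.7% were called, 7.9% higher and 10.8% lower. The median log2 difference of the members was 1.34, beside -0.01 for all genes, and 25 members had R3 arrays above all R1 arrays, beside 15.5% of all genes. In R2 against R1, 1 member was called higher and 11 were called lower, where 13.1% of all genes were called, 6.89% higher and 6.16% lower. The members' median log2 difference was -0.23, beside -0.02 for all genes, and 14 members had R2 arrays below all R1 arrays, beside 15.4% of all genes. These comparisons share arrays with R3 against R2 and with each other, so they are set side by side and do not support one another. In such sorted samples, fewer Schwann cells and less of these RNAs per cell cannot be told apart. On the actin control probe sets, the 3-prime minus 5-prime difference, a sign of RNA length, was 0.119 to 0.195 in R3 and 0.106 to 0.216 in R2, against 0.043 to 0.069 in R1. The Gapdh controls overlapped, at 2.68 to 3.02 in R3 and 2.57 to 2.85 in R2, against 2.63 to 2.97 in R1. The part of RNA quality in the differences from R1 was not tested.

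**Figure D1:**
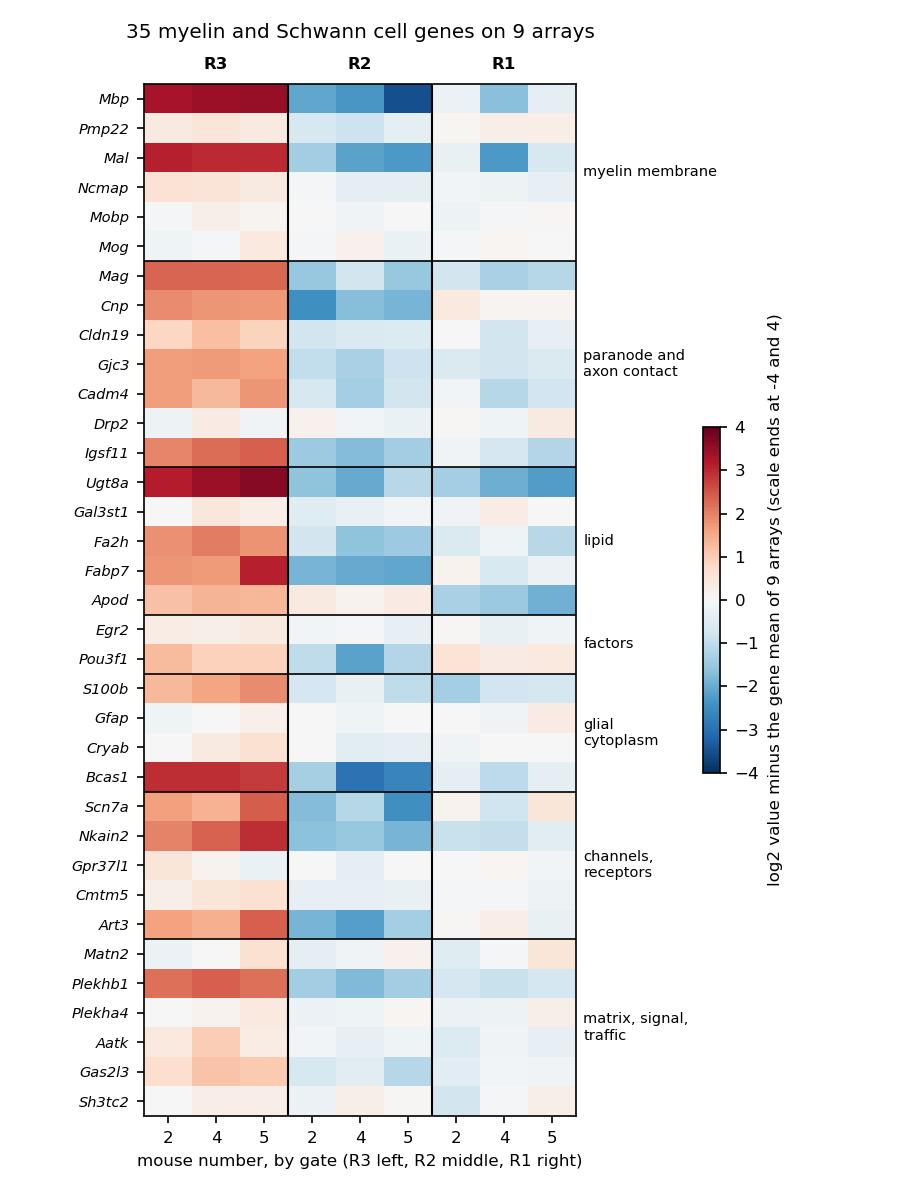
Values of the 35 genes on the 9 arrays, each shown as log2 value minus the gene's mean over the arrays (colour, red above and blue below); columns are mice within gates, R3 left, R2 middle and R1 right, and rows are grouped by role. The R3 columns are the reddest for most genes, among them Mbp, Mal, Ugt8a and Bcas1, while Mobp, Mog, Drp2 and Gfap are pale in all columns.

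The proteins of the myelin membrane were split: Mbp and Mal were far higher in R3, Pmp22 and Ncmap were moderately higher than in R2, and Mobp and Mog were not. Mbp encodes myelin basic protein, which holds the inner faces of the compact myelin membrane together. Its log2 level was 11.84, 11.98 and 12.04 in the R3 arrays of mice 2, 4 and 5, against 6.48, 6.23 and 5.06 in the R2 arrays and 8.34, 6.87 and 8.18 in the R1 arrays. The gates did not overlap, R3 varied little between mice, and the R1 array of mouse 4 lay below the other R1 arrays. Mbp was 65.4-fold higher in R3 cells than in R2 cells (log2 difference 6.03, SE 0.43), where 1 of the 3 R2 arrays was dim. It rose 17.8-fold in R3 against R1 (log2 difference 4.16, SE 0.43, adjusted p = 0.000172) and fell in R2 against R1 (log2 difference -1.87, SE 0.43, adjusted p = 0.0191); leaving out the R1 array of mouse 2 or mouse 5 raised that last adjusted p to at most 0.0688.

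Mal, a raft-associated proteolipid of myelin, had levels of 10.55, 10.41 and 10.41 in R3, against 6.05, 5.31 and 5.15 in R2 and 7.14, 5.13 and 6.79 in R1. The R3 arrays stood well above both other gates, which overlapped. Mal was 31-fold higher in R3 cells than in R2 cells and rose 17.2-fold against R1 (limma, adjusted p = 0.000256). Of its arrays, 2 of 3 in R2 and 2 of 3 in R1 were above the guide. Pmp22, a compact myelin protein whose dosage is altered in a hereditary neuropathy, showed another order. It had 11.38, 11.53 and 11.39 in R3, against 10.40, 10.21 and 10.66 in R2 and 11.12, 11.28 and 11.29 in R1. R3 and R1 lay close together and R2 lay below both: Pmp22 was 2.01-fold higher in R3 cells than in R2 cells, differed from R1 by a log2 difference of 0.21 (SE 0.14, adjusted p = 0.359), and fell in R2 against R1 by 0.80 (SE 0.14, adjusted p = 0.00477). Pmp22 is also known from fibroblasts and other cells outside nerve. Ncmap, a protein of non-compact myelin in peripheral nerve, was 1.69-fold higher in R3 cells than in R2 cells, at 6.64, 6.57 and 6.41 against 6.01, 5.68 and 5.68. Its R1 arrays read 5.96, 5.86 and 5.74, and it rose 1.61-fold in R3 against R1 (adjusted p = 0.00705).

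Mobp and Mog, known from the myelin of oligodendrocytes in the central nervous system, did not separate the gates. Mobp lay between 6.05 and 6.30 in R3, against 5.95 to 6.08 in R2 and 5.89 to 6.13 in R1. Mog was dim on all 9 arrays, between 3.25 and 3.83 in R3, against 3.17 to 3.59 in R2 and 3.34 to 3.49 in R1. For both genes the gates overlapped in each comparison.

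**Figure D2:**
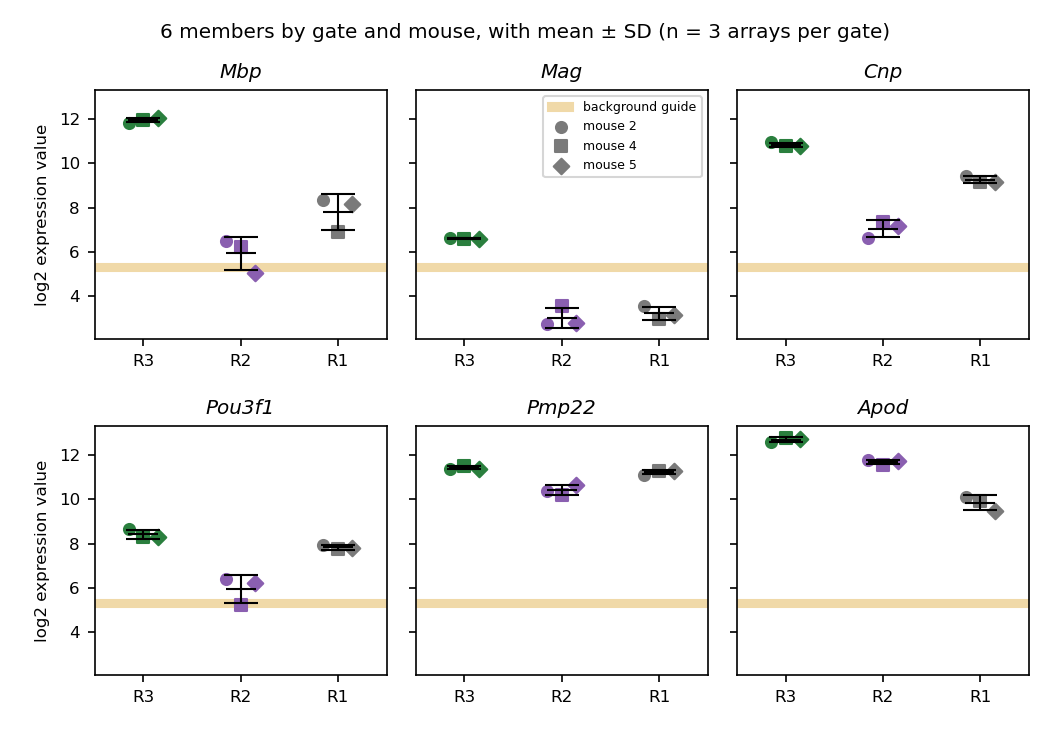
Log2 expression values of 6 genes by gate (R3 left, R2 middle, R1 right), 1 point per mouse with mean ± SD (n = 3 arrays) and the background guide as a band. R3 is highest in each panel; R1 stands well above R2 for Cnp and Pou3f1, near R3 for Pmp22, at the level of R2 for Mag and below R2 for Apod.

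Of the 7 measured genes in the group named for the paranode and for contact with the axon, 6 were called higher in R3 against R1. Over all genes 7.9% were called higher in this comparison. The remaining one, Drp2, was not called. The group is a loose one, and its name does not hold for each gene in it, Drp2 and Cnp among them. Mag, an adhesion protein on the myelin layer that faces the axon, had 6.62, 6.60 and 6.59 in R3, against 2.75, 3.54 and 2.77 in R2 and 3.54, 2.98 and 3.14 in R1. Only the R3 arrays stood above the background guide, and R2 and R1 overlapped. Mag was 12-fold higher in R3 cells than in R2 cells, and it rose 10.4-fold against R1 (adjusted p = 1.37e-05); both folds rest on dim levels on the lower side.

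Cnp encodes a cyclic nucleotide phosphodiesterase that keeps cytoplasmic channels open in myelin. It had 10.95, 10.80 and 10.78 in R3, against 6.60, 7.34 and 7.17 in R2 and 9.43, 9.15 and 9.15 in R1. All 3 gates were apart, with R1 much closer to R3 than R2 was. Cnp was 14-fold higher in R3 cells than in R2 cells, rose 3.02-fold in R3 against R1 (adjusted p = 0.000405) and fell in R2 against R1 by 2.21 on the log2 scale (SE 0.19, adjusted p = 9.51e-05). This was the largest fall among the members in R2 against R1.

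Igsf11, an adhesion protein of the immunoglobulin superfamily, had 7.21, 7.49 and 7.67 in R3, against 3.83, 3.53 and 3.88 in R2 and 5.14, 4.59 and 4.11 in R1. Both lower gates were dim, and it rose 7.18-fold in R3 against R1 (adjusted p = 6.16e-05). Its fall in R2 against R1 (log2 difference -0.87, adjusted p = 0.0461) lost its call under 11 alternatives, among them the mouse as a block. Gjc3, a connexin of the innermost myelin layer, had 7.13, 7.17 and 7.08 in R3, against 4.49, 4.15 and 4.62 in R2 and 4.90, 4.73 and 4.90 in R1. It rose 4.87-fold against R1 (adjusted p = 1.01e-05), and R2 and R1 were both dim. Cadm4, the adhesion protein by which Schwann cells bind axons, had 8.94, 8.58 and 9.04 in R3, against 6.63, 5.90 and 6.54 in R2 and 7.15, 6.11 and 6.51 in R1. R2 and R1 overlapped, and Cadm4 rose 4.79-fold in R3 against R1 (adjusted p = 0.000542).

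Cldn19, a claudin of the tight junctions between Schwann cell loops, was dim on all but 1 array. It had 4.88, 5.25 and 4.92 in R3, against 3.31, 3.46 and 3.49 in R2 and 4.01, 3.31 and 3.70 in R1, and it rose 2.54-fold against R1 (adjusted p = 0.00102). Drp2, a relative of dystrophin that forms a complex with periaxin in Schwann cells, lay between 7.39 and 7.92 in R3, against 7.34 to 7.79 in R2 and 7.45 to 7.96 in R1. The 3 gates overlapped for Drp2.

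Among the genes of myelin lipids and lipid carriers, 4 of 5 rose in R3 against R1, beside 7.9% of all genes called higher. Ugt8a makes galactosylceramide, the main glycolipid of myelin. It had 7.99, 8.31 and 8.51 in R3, against 3.26, 2.86 and 3.76 in R2 and 3.51, 2.91 and 2.63 in R1. R2 and R1 overlapped and were dim on each array. Ugt8a was 31.5-fold higher in R3 cells than in R2 cells and rose 38.1-fold against R1 (log2 difference 5.25, SE 0.28, adjusted p = 4.2e-06). Its other probe set, also dim in R2 and R1, gave 11.3-fold against R1, so the fold differed by probe set, and both folds are against dim values. Fa2h, which hydroxylates the fatty acids of these lipids, had 7.47, 7.67 and 7.42 in R3, against 4.91, 4.03 and 4.18 in R2 and 5.06, 5.46 and 4.54 in R1. It was 8.86-fold higher in R3 cells than in R2 cells and rose 5.67-fold against R1 (limma, adjusted p = 0.000243). All of its R2 arrays were dim and only 1 of 3 R1 arrays was above the guide, so both folds are limited by background. Gal3st1, which adds the sulfate that turns galactosylceramide into sulfatide, stayed under the guide on all arrays, with 4.67, 5.14 and 4.94 in R3, against 4.18, 4.39 and 4.55 in R2 and 4.53, 4.97 and 4.67 in R1. Its R3 arrays lay above all R2 arrays (log2 difference 0.54) and overlapped those of R1, and at dim levels neither can be read as a level of the gene.

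Fabp7, a fatty acid carrier known from Schwann cell precursors and radial glia, had 9.08, 9.02 and 10.42 in R3, against 5.45, 5.28 and 5.24 in R2 and 7.46, 6.69 and 7.08 in R1. The R3 array of mouse 5 was the highest, and the gates did not overlap. Fabp7 was 18.2-fold higher in R3 cells than in R2 cells, rose 5.39-fold against R1 (limma, adjusted p = 0.00117) and fell in R2 against R1 (log2 difference -1.76, SE 0.35, adjusted p = 0.00986). Only 1 of 3 R2 arrays was above the guide, so the fold over R2 and the fall in R2 are limited by background. Apod, a secreted lipocalin of peripheral nerve that fibroblasts also make, had an order of its own. It had 12.58, 12.79 and 12.73 in R3, against 11.77, 11.56 and 11.74 in R2 and 10.12, 9.94 and 9.48 in R1. R2 stood between R3 and R1 with no overlap, and Apod was the 1 member that rose in R2 against R1, by 3.59-fold (adjusted p = 0.000134). It rose 7.21-fold in R3 against R1 (adjusted p = 8.11e-06) and was 2.01-fold higher in R3 cells than in R2 cells.

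Both transcription factors of myelination among the members were highest in R3, and neither was called in R3 against R1. Pou3f1 (also Oct6) acts in Schwann cells about to myelinate. It had 8.66, 8.30 and 8.31 in R3, against 6.38, 5.25 and 6.21 in R2 and 7.94, 7.73 and 7.80 in R1. R3 lay just above R1 and R2 lay well below. Pou3f1 was 5.58-fold higher in R3 cells than in R2 cells, had a log2 difference of 0.60 against R1 (SE 0.27, adjusted p = 0.157) and fell in R2 against R1 by 1.88 (SE 0.27, adjusted p = 0.00155). With the 6 arrays of R3 and R1 alone, the adjusted p of Pou3f1 in R3 against R1 was 0.0341. Egr2 (also Krox20), which is required for peripheral myelination and is also an immediate early gene of fibroblasts, had 11.23, 11.16 and 11.26 in R3, against 10.80, 10.85 and 10.58 in R2 and 10.97, 10.63 and 10.77 in R1. The R3 arrays stood above the others, but by little: the log2 difference was 0.48 against R2 (SE 0.13) and 0.42 against R1 (SE 0.13, adjusted p = 0.054).

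The promoters of the members were searched for letters bound by the SOX, EGR and POU families of factors. The members were listed with R3 against R2 in view, so nothing on shared control is read from their common pattern. The windows come from RefSeq (GRCm38.p6) and run from 250 bases before to 50 after the start of transcription, and 27 of 35 members had one. Both strands were searched for ACAANG, the core of SOX sites, for GCGNGGGNG, known from EGR sites, and for ATGCAAAT, the POU octamer; no match of 1 motif is a match of another. The SOX letters were in 13 of 27 member windows (48.1%), beside 41.6% of all 27025 genes with a window, and the EGR letters were in 6 of 27 (22.2%), beside 12.1%. The octamer was in 0 of 27, beside 1.75% of all genes. These are counts of letters and say nothing on binding. The following 5 windows were picked after the matches were seen: Cnp, Scn7a and Cadm4 are the members at least 2-fold higher in R3 than in R2 that hold both SOX and EGR letters, Mag holds a pair of SOX matches close together, and Egr2, one of the factors itself, holds 4 overlapping EGR matches in a pair of stretches. Each is printed along the strand of its gene, with matches in capitals. Cnp is at chr11:100574689-100574988 on the plus strand, Scn7a at chr2:66784861-66785160 on the minus strand, Cadm4 at chr7:24481773-24482072 on the plus strand, Mag at chr7:30914814-30915113 on the minus strand and Egr2 at chr10:67535249-67535548 on the plus strand.
Cnp: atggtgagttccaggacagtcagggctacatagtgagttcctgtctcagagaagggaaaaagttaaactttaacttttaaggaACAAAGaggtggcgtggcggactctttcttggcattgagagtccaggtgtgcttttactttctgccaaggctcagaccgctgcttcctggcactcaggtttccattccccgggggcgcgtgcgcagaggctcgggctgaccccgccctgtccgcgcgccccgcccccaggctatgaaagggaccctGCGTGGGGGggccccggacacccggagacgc
Scn7a: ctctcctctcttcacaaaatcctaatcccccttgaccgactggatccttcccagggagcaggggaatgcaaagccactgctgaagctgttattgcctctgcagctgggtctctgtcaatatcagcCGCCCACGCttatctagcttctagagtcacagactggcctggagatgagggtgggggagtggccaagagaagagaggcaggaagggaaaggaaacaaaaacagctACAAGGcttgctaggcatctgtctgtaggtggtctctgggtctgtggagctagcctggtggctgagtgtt
Cadm4: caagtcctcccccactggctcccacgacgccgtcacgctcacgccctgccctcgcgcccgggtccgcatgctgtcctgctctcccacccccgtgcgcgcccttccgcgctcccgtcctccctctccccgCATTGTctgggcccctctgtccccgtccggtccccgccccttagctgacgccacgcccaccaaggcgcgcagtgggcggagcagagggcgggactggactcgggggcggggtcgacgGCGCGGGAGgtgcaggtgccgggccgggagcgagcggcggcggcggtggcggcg
Mag: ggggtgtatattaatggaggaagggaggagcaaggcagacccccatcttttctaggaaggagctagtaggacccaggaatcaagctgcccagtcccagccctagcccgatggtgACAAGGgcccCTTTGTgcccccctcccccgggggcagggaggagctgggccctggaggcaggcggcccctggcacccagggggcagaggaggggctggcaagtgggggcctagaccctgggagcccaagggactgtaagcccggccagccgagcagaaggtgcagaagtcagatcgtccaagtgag
Egr2: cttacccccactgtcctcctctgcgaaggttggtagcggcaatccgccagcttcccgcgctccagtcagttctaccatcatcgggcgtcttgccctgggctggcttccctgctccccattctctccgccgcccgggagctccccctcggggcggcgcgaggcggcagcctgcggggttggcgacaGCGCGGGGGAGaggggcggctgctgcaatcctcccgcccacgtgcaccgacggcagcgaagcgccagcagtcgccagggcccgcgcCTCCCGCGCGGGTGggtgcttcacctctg
In the Cnp window, the EGR match lies close to the 3-prime end, near the start of transcription. The Cadm4 and Scn7a windows each hold 1 match of either kind, and their genes rose 4.79-fold and 3.68-fold in R3 against R1. Mal, with 0 matches in its window, rose 17.2-fold. A link between matches and folds was not tested.

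Of the glial cytoplasm genes, S100b and Bcas1 rose in R3 against R1, while Gfap and Cryab did not pass. Over all genes 7.9% were called higher in this comparison. Bcas1, known from oligodendrocytes and Schwann cells that are beginning to myelinate, had 10.01, 10.01 and 9.87 in R3, against 5.74, 4.10 and 4.41 in R2 and 6.69, 6.0 and 6.69 in R1. On the probe set used, the gates did not overlap, and 1 of 3 R2 arrays was above the guide. The other probe sets of Bcas1 were flat, and the folds given are of the one used. Bcas1 was 37.1-fold higher in R3 cells than in R2 cells, rose 11.3-fold against R1 (adjusted p = 0.000211), and fell in R2 against R1 (log2 difference -1.71, SE 0.37, adjusted p = 0.0155), a call lost without each of 4 single arrays in turn, up to an adjusted p of 0.0556. S100b, a calcium-binding protein used as a Schwann cell marker, had 7.51, 7.78 and 8.09 in R3, against 5.53, 5.91 and 5.18 in R2 and 4.85, 5.45 and 5.49 in R1. R2 and R1 overlapped, and S100b rose 5.79-fold in R3 against R1 (adjusted p = 0.000115). Gfap, the intermediate filament of astrocytes and of non-myelinating Schwann cells, was dim throughout, at 3.72 to 4.08 in R3, against 3.70 to 3.88 in R2 and 3.72 to 4.20 in R1. Cryab, a small heat shock protein of myelin and of muscle and lens, lay at 11.30 to 11.91 in R3, against 10.84 to 11.27 in R2 and 11.14 to 11.32 in R1; its adjusted p in R3 against R1 was 0.187.

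The membrane channels, receptors and related proteins were nearly all higher in R3, and 3 of these 5 genes fell in R2 against R1. Over all genes 6.16% were called lower in R2 against R1. Nkain2, which binds the sodium pump, had 6.47, 6.86 and 7.43 in R3, against 2.86, 2.97 and 2.62 in R2 and 3.61, 3.54 and 4.04 in R1. Both lower gates were dim. Nkain2 was 17.2-fold higher in R3 cells than in R2 cells and rose 9.1-fold against R1 (adjusted p = 2.85e-05); its fall in R2 against R1 (adjusted p = 0.0346) was lost under 8 alternatives, up to an adjusted p of 0.26. Scn7a, a sodium channel known from non-myelinating Schwann cells, had 7.55, 7.32 and 8.34 in R3, against 4.19, 4.79 and 3.47 in R2 and 6.05, 5.13 and 6.40 in R1. All 3 gates were apart, and the spread between mice was wide in each. All R2 arrays were dim and 2 of 3 R1 arrays were above the guide, so the following differences are limited by background. Scn7a was 12-fold higher in R3 cells than in R2 cells, rose 3.68-fold in R3 against R1 (adjusted p = 0.0116) and fell in R2 against R1 by 1.71 (SE 0.41, adjusted p = 0.0248), a fall that was lost without each of 4 single arrays in turn, up to an adjusted p of 0.0791. Art3, a surface protein of the ADP-ribosyltransferase family, had 8.0, 7.79 and 8.77 in R3, against 4.51, 4.19 and 5.01 in R2 and 6.42, 6.65 and 6.08 in R1. Art3 also held 3 separate levels. It rose 3.49-fold in R3 against R1 (limma, adjusted p = 0.00219) and fell in R2 against R1 by 1.81 (SE 0.29, adjusted p = 0.00309). Its R2 arrays were all dim, which limits the size of that fall. Cmtm5, a tetraspan membrane protein of myelin, moved less, with 6.10, 6.35 and 6.48 in R3, against 5.54, 5.55 and 5.57 in R2 and 5.80, 5.80 and 5.68 in R1. It rose 1.46-fold in R3 against R1 (adjusted p = 0.0151; 0.0526 without the R3 array of mouse 4). Gpr37l1, a receptor of astrocytes and satellite glia, was near the guide, at 4.90 to 5.65 in R3, against 4.77 to 5.20 in R2 and 5.07 to 5.25 in R1.

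Of the 6 genes of matrix, signalling and traffic, Plekhb1, Gas2l3 and Aatk rose in R3 against R1, beside 7.9% of all genes called higher. Plekhb1, a pleckstrin homology protein of glia and photoreceptors, had 9.44, 9.62 and 9.45 in R3, against 5.84, 5.47 and 5.86 in R2 and 6.57, 6.36 and 6.54 in R1. The spread within each gate was small and the gates were apart. Plekhb1 was 13.7-fold higher in R3 cells than in R2 cells, rose 8.09-fold against R1 (adjusted p = 3.88e-06) and fell in R2 against R1 by 0.76 (SE 0.14, adjusted p = 0.00707). Gas2l3, a linker of actin and microtubules, had 9.0, 9.46 and 9.38 in R3, against 7.70, 7.89 and 7.20 in R2 and 7.90, 8.23 and 8.19 in R1, and it rose 2.25-fold against R1 (adjusted p = 0.00334). Aatk, a kinase of neurons and glia, had 6.73, 7.33 and 6.66 in R3, against 6.24, 6.01 and 6.19 in R2 and 5.80, 6.20 and 6.01 in R1, and it rose 1.87-fold against R1 (adjusted p = 0.0099). The other members of the group did not pass. Matn2, a matrilin of the matrix around nerves, spread more between mice than between gates on the probe set used, at 10.73 to 11.61 in R3, against 10.61 to 11.15 in R2 and 10.51 to 11.46 in R1. Sh3tc2, an endosomal protein of Schwann cells altered in a demyelinating neuropathy, lay near the guide, at 5.29 to 5.57 in R3, against 5.06 to 5.55 in R2 and 4.56 to 5.54 in R1. Plekha4, a pleckstrin homology protein known to bind membrane lipids, lay at 7.49 to 7.90 in R3, against 7.29 to 7.59 in R2 and 7.29 to 7.73 in R1.

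**Figure D3:**
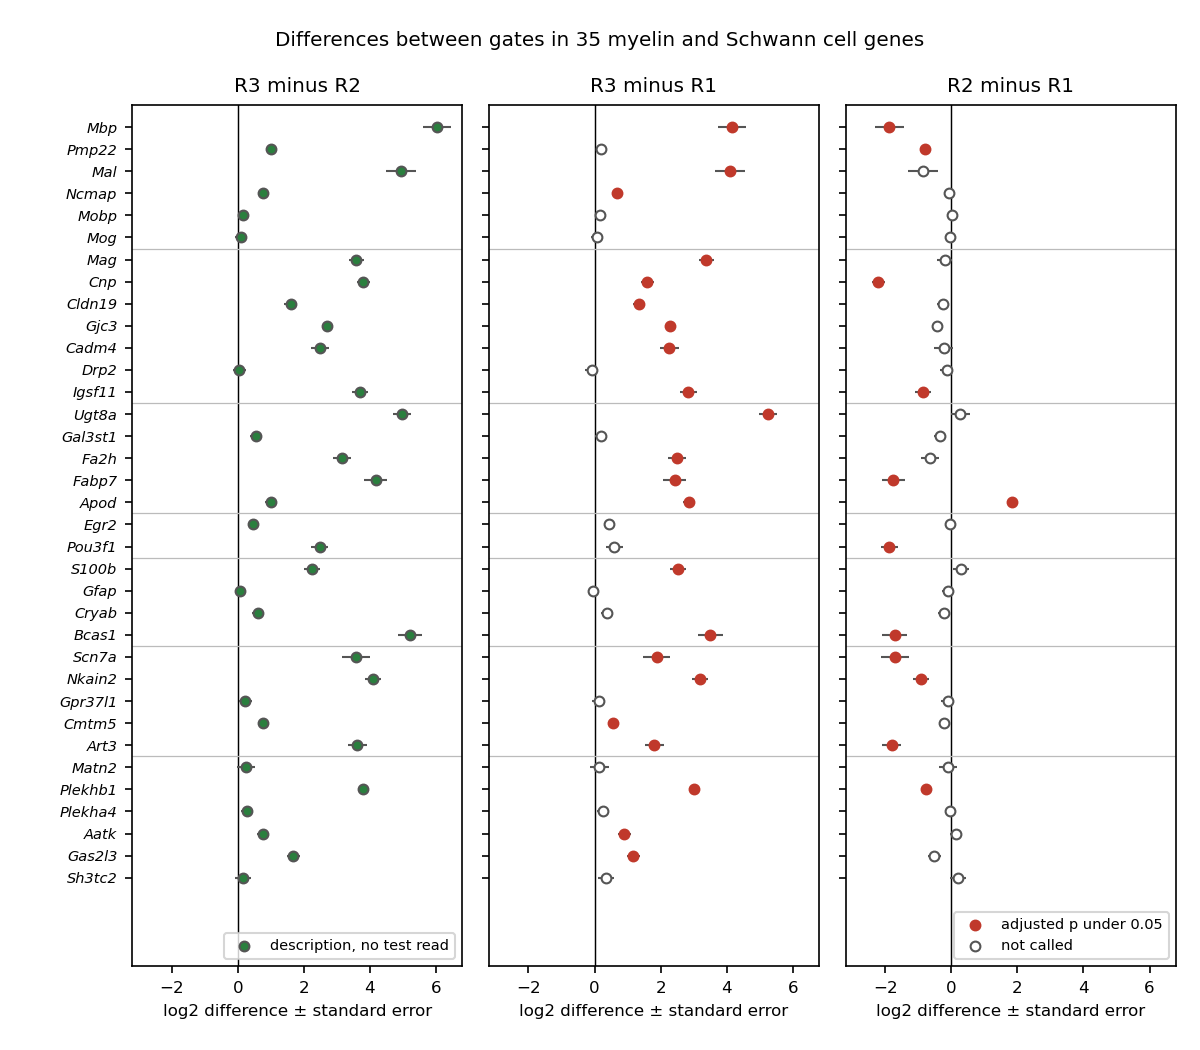
Log2 differences between gates with their standard errors (limma) for the 35 genes, R3 minus R2 left, R3 minus R1 middle and R2 minus R1 right, grouped by role. Points right of 0 are higher in the gate named first; in the middle panel 22 are called and all lie right of 0, and in the right panel 11 called genes lie left of 0 and Apod lies right of it.

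Across the gates the usual order was R3 above R1 above R2, which 27 members followed by their means, while 6 had R3 above R2 above R1 and 2, Drp2 and Gfap, had R1 above R3 above R2. The arrays of R3 lay above all arrays of both other gates for 25 of 35 members, a pattern that 5.24% of all genes showed. The members were listed with R3 against R2 in view, so this count and the calls against R2 that follow are descriptions only. Of the members, 21 were called in both comparisons of R3, Pmp22 and Pou3f1 against R2 and not R1, and Aatk against R1 and not R2. Another 11 were called in none of the 3 comparisons. Over all genes, 1.97% were called higher in R3 against R2 and 7.9% in R3 against R1, and the share called in both was not counted. On the level scale, 30 members lay above the guide on all 3 R3 arrays, against 15 on all R2 arrays and 20 on all R1 arrays. The genes that stayed under it were 3 in R3, 13 in R2 and 10 in R1. Mog, Gal3st1 and Gfap were under it on all 9 arrays.

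The order of the mice differed by gate. Of the 23 members called higher in R3 than in R2, the R1 array of mouse 4 was the lowest R1 array for 13, where 30% of all genes had it lowest, and the R1 array of mouse 2 was the highest for 16, where 33.4% of all genes had it highest. In R3, mouse 5 was the highest for 10, mouse 4 for 8 and mouse 2 for 5. Over all genes these R3 arrays were the highest for 39.9%, 30.7% and 29.4%, so the order in R3 is not read as particular to the members. These ranks were not tested. The mean over the 18 members with an SD of at least 1 over the 9 arrays was 8.78, 8.81 and 9.05 in R3 for mice 2, 4 and 5, against 5.41, 5.13 and 5.16 in R2 and 6.33, 5.86 and 6.09 in R1. These members vary over the arrays by choice, so the distance between the gates is only described.

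The 35 members have 74 probe sets in all, and 21 members have more than 1. Of the 39 probe sets not used, 17 were called higher and 0 lower in R3 against R2, 19 higher and 0 lower in R3 against R1, and 1 higher and 9 lower in R2 against R1. The shares called over all probe sets were not counted, so these counts are not read as particular to the members. No member had probe sets called in opposite directions. The 8 probe sets of Mbp fell into 6 with high R3 levels and 2 that were flat. The 3 probe sets of Cnp and the 3 of Scn7a gave 1 order of gates each, R3 above R1 above R2. The choice of probe set also mattered for other members, among them Bcas1, Art3, Pou3f1, Mal, Plekha4, Matn2 and Ugt8a. The unused probe sets of Bcas1, Art3 and Pou3f1 were flat and called in no comparison. Their log2 differences in R3 against R1 were -0.09 and -0.08 for Bcas1, 0.01 for Art3 and -0.03 for Pou3f1. The other probe set of Mal rose 5.3-fold in R3 against R1, where the one used rose 17.2-fold. For Plekha4, the next brightest probe set had 8.97, 8.90 and 9.88 in R3, against 5.98, 5.88 and 6.16 in R2 and 6.91, 5.97 and 7.04 in R1, while the one used, with the higher mean, did not pass. The other probe set of Matn2 had 10.79, 10.95 and 10.84 in R3, against 10.47, 10.67 and 10.54 in R2 and 10.21, 10.48 and 10.37 in R1, and it was called higher in R3 against R1 (log2 difference 0.51, SE 0.13, limma adjusted p = 0.0252 over all probe sets). In R2 against R1, the other probe set of Ugt8a was called lower (log2 difference -0.61, adjusted p = 0.0255), at dim levels on all 6 arrays. Igsf11 has 1 probe set, and its adjusted p in R2 against R1 was 0.055 in the limma fit over all probe sets. When a member was counted as called by any of its probe sets, a choice made after the data were seen, 24 members were called higher in R3 against R2 and 24 in R3 against R1. Among the unused probe sets of Mobp, 1 read 8.12 in the R1 array of mouse 2 and 4.19 to 4.94 on the other arrays.

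Genes of the Schwann cell lineage outside the members, which mark the cells and not the sheath, were then set beside them. This list too was chosen with earlier results of these data known, so its counts are descriptions and no support for the members. Of 14 measured, 8 were called higher and 1 lower in R3 against R2 (median log2 difference 0.93), 5 higher and 2 lower in R3 against R1 (median 0.50), and 1 higher and 5 lower in R2 against R1 (median -0.46). Over all genes 5.03%, 18.7% and 13.1% were called in these comparisons. The mean level of the lineage genes was 8.61 to 8.76 in R3 and 7.53 to 7.61 in R2, against 7.94 to 8.15 in R1. Cdh19, a cadherin of Schwann cell precursors, had 6.52, 7.10 and 7.57 in R3, against 3.29, 3.18 and 3.05 in R2 and 3.94, 3.99 and 3.82 in R1. It rose 8.85-fold against R1 (limma, adjusted p = 2.15e-05), a fold against dim values, and R2 was dim too. Dhh, a hedgehog ligand that Schwann cells send to the nerve sheath, had 9.53, 9.38 and 9.48 in R3, against 7.05, 7.25 and 6.69 in R2 and 7.46, 6.40 and 6.24 in R1, and it rose 6.79-fold against R1 (adjusted p = 0.000186). For both, the R3 arrays lay above all R2 and R1 arrays. Itga4, an integrin subunit of crest cells and leukocytes, and Postn, a matrix protein that fibroblasts also make, were the 2 called lower in R3 against R1 and are named outside the rule, after their values were seen. Itga4 had 7.05, 7.20 and 7.25 in R3, against 8.01, 8.01 and 7.82 in R2 and 8.47, 8.79 and 8.56 in R1, and its log2 difference in R3 against R1 was -1.44 (SE 0.13, adjusted p = 8.55e-05). Postn had a log2 difference of -0.44 in R3 against R1 (SE 0.12, adjusted p = 0.032).

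Among other lineage genes, R1 lay nearer to R3 than to R2 for Erbb3 and L1cam, nearer to R2 for Foxd3, and below both for Ednrb. Erbb3, the neuregulin receptor of Schwann cells and melanoblasts, had 10.39, 10.04 and 9.80 in R3, against 7.67, 7.01 and 6.57 in R2 and 9.83, 9.39 and 9.42 in R1. It had a log2 difference of 0.53 in R3 against R1 (SE 0.27, adjusted p = 0.22) and fell in R2 against R1 by 2.46 (SE 0.27, adjusted p = 0.000372). L1cam, an adhesion molecule of immature and non-myelinating Schwann cells, had 7.25, 6.63 and 7.79 in R3, against 5.04, 5.11 and 5.62 in R2 and 6.31, 6.45 and 6.61 in R1; its adjusted p in R3 against R1 was 0.084. Foxd3, a neural crest factor, had 6.50, 5.76 and 5.97 in R3, against 4.45, 4.45 and 4.60 in R2 and 5.18, 5.12 and 5.15 in R1. It rose 1.9-fold in R3 against R1 (adjusted p = 0.00565), and R2 and R1 were dim on each array. Ednrb, an endothelin receptor of crest cells that papilla cells also express, rose in R2 against R1 by a log2 difference of 1.55 (adjusted p = 5.17e-05) and in R3 against R1 by 1.68 (adjusted p = 1.9e-05). Sox10, the factor that defines this lineage, was looked at outside the rule for named genes after its values were seen. It averaged 7.26 in R3 and 6.34 in R2, against 6.79 in R1, and had a log2 difference of 0.47 in R3 against R1 (SE 0.14, adjusted p = 0.051). Sox10, Erbb3 and Ednrb are also known from melanocytes, whose markers are given with the other cell types.

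Known regulators of myelination included few calls. Of 24 measured, 1 was called higher and 1 lower in R3 against R2, 4 higher and 0 lower in R3 against R1, and 1 higher and 0 lower in R2 against R1, with median log2 differences of 0.21, 0.18 and 0.04; beside the 5.03%, 18.7% and 13.1% called over all genes, these counts are not read as particular to the regulators. Adgrg6, an adhesion receptor required in fish and mice for Schwann cells to start myelination, had 7.80, 8.04 and 8.36 in R3, against 6.49, 5.49 and 5.60 in R2 and 5.93, 6.42 and 6.42 in R1, and it rose 3.52-fold against R1 (limma, adjusted p = 0.00155). Pou3f2, a relative of Pou3f1, had 5.46, 5.82 and 6.84 in R3, against dim levels of 4.14, 4.86 and 4.71 in R2 and 4.18, 4.28 and 5.11 in R1 (R3 against R1, adjusted p = 0.0195). Notch1, a receptor that holds back myelination, ran the other way in R2: it had 10.19, 10.37 and 10.37 in R3, against 11.01, 11.17 and 11.12 in R2 and 10.30, 9.85 and 9.84 in R1, and it rose 2.15-fold in R2 against R1 (adjusted p = 0.00125). Tead1, a factor of the Hippo pathway, and Egr3, a relative of Egr2, passed in none of the comparisons.

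Genes of general sphingolipid and fatty acid metabolism had calls in both directions. Besides enzymes of synthesis, the list holds enzymes of breakdown, among them Arsa and Galc, and a transfer protein, Gltp. Of 23 measured, 1 was called higher and 0 lower in R3 against R2 (median log2 difference -0.02), 2 higher and 4 lower in R3 against R1 (median -0.07), and 2 higher and 2 lower in R2 against R1 (median -0.05); over all genes 5.03%, 18.7% and 13.1% were called in these comparisons. Elovl6, an elongase of saturated fatty acids, was the 1 higher in R3 than in R2, by 2.07-fold (limma, adjusted p = 0.0347), with a log2 difference of 0.32 against R1 (adjusted p = 0.41). Elovl5, which elongates polyunsaturated fatty acids, rose 1.86-fold in R3 against R1 (adjusted p = 0.000822), and Gltp, a glycolipid transfer protein, fell by 0.96 on the log2 scale (adjusted p = 0.000875). Ugcg, which makes glucosylceramide, and Fasn, the fatty acid synthase, passed in none of the 3 comparisons.

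Among 22 measured genes of axon contact and of the basal lamina, 6 were called higher and 0 lower in R3 against R2, 7 higher and 1 lower in R3 against R1, and 2 higher and 3 lower in R2 against R1, with median log2 differences of 0.30, 0.20 and 0.01. Over all genes 5.03%, 18.7% and 13.1% were called in these comparisons. Itgb8, an integrin subunit, had 6.85, 7.38 and 8.30 in R3, against 2.98, 3.11 and 2.83 in R2 and 4.26, 3.71 and 3.92 in R1. It rose 11.7-fold against R1 (limma, adjusted p = 7.58e-05), a fold against dim values, and R2 was dim too. Cadm1, an adhesion protein related to Cadm4, rose 1.7-fold in R3 against R1 (adjusted p = 0.0431) and fell in R2 against R1 by 1.20 (adjusted p = 0.00782). Itga6, a laminin receptor subunit of Schwann cells and of other cells on a basal lamina, rose 2.29-fold in R3 against R1 (adjusted p = 0.000357). Cntn1, an axonal and glial contactin, had 7.73, 8.35 and 7.97 in R3, against 6.74, 6.25 and 6.15 in R2 and 4.86, 5.22 and 5.61 in R1, so that R2 stood between the other gates. Dmd, which encodes dystrophin, had a log2 difference of 0.03 in R3 against R1 (SE 0.19) and fell in R2 against R1 by 1.11 (adjusted p = 0.00413). Lama2, the laminin chain of the Schwann cell basal lamina that other mesenchymal cells also make, rose 3.12-fold in R3 and 2.92-fold in R2 against R1 (adjusted p = 2.19e-05 and 5.17e-05).

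Markers of oligodendrocytes, the other myelinating glia, were at low mean levels, with 7 of 15 above the guide on all R3 arrays, against 6 on all R2 and 6 on all R1 arrays. Of 15 measured, 1 was called higher and 0 lower in R3 against R2, 4 higher and 1 lower in R3 against R1, and 0 higher and 1 lower in R2 against R1, with median log2 differences of 0.29, 0.41 and 0.055. Beside the 5.03%, 18.7% and 13.1% called over all genes, these counts are not read as particular to oligodendrocyte genes. The mean level of the 15 was 5.49 to 5.66 in R3 and 5.05 to 5.09 in R2, against 4.98 to 5.14 in R1, and 2 of 15 were dim on all R3 arrays, against 9 on all R2 and 9 on all R1 arrays. Olig2 and Nkx2-2, factors that define the lineage, were dim on all 9 arrays. Aspa, an enzyme that breaks down N-acetylaspartate, was the 1 called in R3 against R2, with 6.94, 7.0 and 7.13 in R3, against dim levels of 4.61, 4.88 and 5.02 in R2 and 5.39, 4.74 and 5.34 in R1 (R3 against R1, limma adjusted p = 0.000163). Myrf, the myelin regulatory factor of oligodendrocytes, had 5.79, 6.12 and 4.60 in R3, against 4.10, 4.40 and 4.27 in R2 and 2.78, 3.56 and 3.76 in R1, so 2 of its 9 values were above the guide. Ermn, an oligodendrocyte cytoskeleton protein, also rose in R3 against dim R1 levels (adjusted p = 0.0112), Ppp1r14a, an inhibitor of myosin phosphatase that smooth muscle makes too, fell in R3 against R1 by 1.79 and in R2 against R1 by 1.47 (adjusted p = 0.000404 and 0.00182), and Gpr17 and Omg passed in no comparison.

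Markers of other cells of the skin moved between the gates as well. Over all genes, 5.03% were called in R3 against R2, 18.7% in R3 against R1 and 13.1% in R2 against R1. Of 11 melanocyte genes, 0 were called in R3 against R2 in either direction (limma; 0 higher and 1 lower at an unadjusted p under 0.05), 8 fell in R3 against R1 and 7 fell in R2 against R1; their mean level was 5.47 to 6.14 in R3 and 5.77 to 6.28 in R2, against 6.91 to 7.48 in R1. Tyr, Slc45a2, Oca2 and Gpr143 were dim on all R3 arrays. Of 16 neuronal genes, 0 rose and 1, Isl1, fell in R3 against R2; 1 rose and 1 fell in R3 against R1, and 3 rose and 2 fell in R2 against R1. Their mean level was 5.63 to 6.25 in R3 and 5.94 to 6.14 in R2, against 5.78 to 5.97 in R1, and Snap25, Nefh and Elavl4 were dim in each gate. The ranges of the 3 gates overlapped for the neuronal mean. Beside the shares over all genes, the neuronal counts are not read as particular to neurons.

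Endothelial genes were highest in R2: of 13, all 13 fell in R3 against R2 and 12 rose in R2 against R1, while 2 rose and 7 fell in R3 against R1. Their mean level was 5.93 to 6.41 in R3 and 8.56 to 8.94 in R2, against 6.85 to 7.17 in R1; Tie1, Emcn and Robo4 were dim on all R3 arrays. Of 20 papilla genes, 8 were called higher and 1 lower in R3 against R2, 18 rose in R3 against R1 and 13 rose in R2 against R1, and 0 fell against R1; their mean level was 10.19 to 10.45 in R3 and 9.62 to 9.73 in R2, against 8.11 to 8.38 in R1. Beside these and the following counts, the shares called over all genes were 5.03% in R3 against R2, 18.7% in R3 against R1 and 13.1% in R2 against R1. The pool R1 held the highest levels of the remaining types. Of 10 keratinocyte genes, 10 fell in R3 and 10 in R2 against R1 (mean level 6.91 to 7.79 in R3 and 7.09 to 7.28 in R2, against 10.08 to 10.66 in R1), and 0 were called in R3 against R2 (limma; 1 higher and 0 lower at an unadjusted p under 0.05). Of 7 leukocyte genes, 6 fell in R3 and 6 in R2 against R1 (mean level 7.44 to 7.85 in R3 and 7.09 to 7.79 in R2, against 9.21 to 9.50 in R1), and 0 were called in R3 against R2 (1 higher and 0 lower unadjusted). Of 9 pericyte and smooth muscle genes, 2 fell in R3 against R2, 1 rose and 6 fell in R3 against R1, and 1 rose and 5 fell in R2 against R1 (mean level 8.13 to 8.30 in R3 and 8.67 to 8.73 in R2, against 9.35 to 9.45 in R1). Of 11 dermal fibroblast genes, 4 fell in R3 against R2, 7 in R3 against R1 and 6 in R2 against R1, and 0 rose (mean level 10.77 to 10.92 in R3 and 11.25 to 11.37 in R2, against 12.21 to 12.24 in R1). In R3 against R1, the median log2 difference was 1.63 for papilla, 0.05 for neuronal, -0.95 for pericyte, -1.06 for endothelial, -1.59 for fibroblast, -1.66 for melanocyte, -1.69 for leukocyte and -2.91 for keratinocyte genes. The members' own mean level was 7.99 to 8.22 in R3 and 5.90 to 6.06 in R2, against 6.35 to 6.56 in R1. The part of these other cells in the members' differences was not tested.

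**Figure D4:**
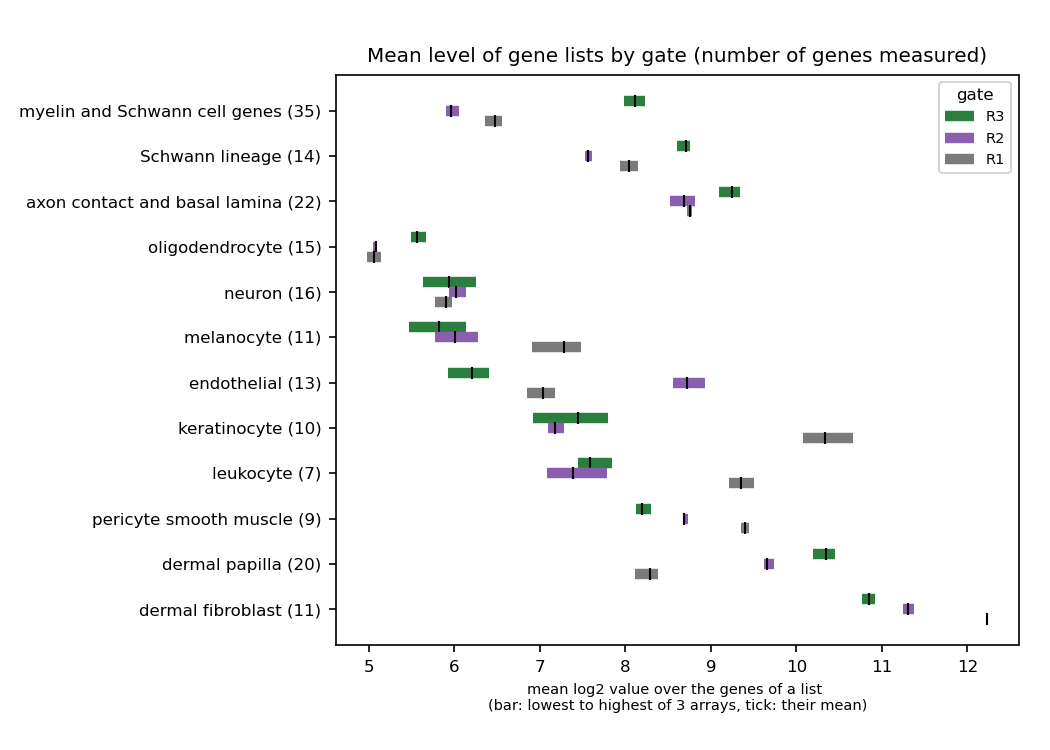
Mean log2 value over the measured genes of each list (number in brackets) by gate, R3 above R2 above R1 in each row; bars run over the lowest to highest of 3 arrays and ticks mark their mean. The myelin and Schwann cell genes lie at 7.99 to 8.22 in R3, above R2 and R1, whereas melanocyte, keratinocyte and leukocyte lists are highest in R1 and the endothelial list in R2.

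Genes outside the list with the most similar pattern were found by their Pearson correlation over the 9 arrays with the mean of the 18 members with an SD of at least 1, among 538 other genes with an SD of at least 1. The points share 3 gates, so the correlation is a description of the gate pattern. The 10 with the highest r were Slc35f1 (0.996), Chl1 (0.993), Mlip (0.992), Cdh19 (0.99), Itgb8 (0.989), Pappa2 (0.981), Kcna1 (0.98), Aspa (0.979), Spock3 (0.978) and Lgi1 (0.976). Chl1, a cell adhesion molecule of neurons and glia, had 10.49, 10.73 and 10.57 in R3, against 6.36, 6.30 and 6.46 in R2 and 7.17, 6.76 and 7.38 in R1. Kcna1, a voltage-gated potassium channel, had 7.97, 8.41 and 7.76 in R3, against 5.85, 5.53 and 5.36 in R2 and 6.14, 5.88 and 6.14 in R1. Pappa2, a protease that cleaves proteins binding insulin-like growth factors, had 11.10, 11.39 and 10.96 in R3, against 7.89, 7.65 and 7.72 in R2 and 8.06, 8.42 and 8.15 in R1. In each of these genes R3 stood alone and R1 lay above R2. They were picked for their likeness to the members, so that order is no separate result.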

How the data were processed

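RNA from 3 sorted gates of 3 mice was measured on 9 arrays, 1 per mouse and gate. Per the labels' protocols, the total RNA came off a column kit, the WT-Ovation Pico system amplified it, and biotin was the label, in 1 colour. What the authors deposited is 1 log2 value per probe set and array, summarised with RMA per the submitters' processing notes; the RMA version and software are not given in the sources used, nor whether the 9 arrays went through it jointly. Folds can be compressed by the amplification, and a shift common to most genes can be lost in quantile normalization.

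Of 45101 probe sets, 34945 had 1 gene symbol in the platform annotation, 932 had several, 9160 had none and 64 were controls; 34884 of the named ones matched a RefSeq gene table (GRCm38.p6, names only). Probe sets with several symbols were left out. For each of 18193 genes the probe set of highest 9-array mean was used; 9010 genes had several. Groups and mouse numbers came from the labels. The mice are separate animals and arrays with the same number are of the same mouse and thus paired; the correlation of deviations about the gate means was 0.00675 to 0.177 in the same mouse (mean 0.085), and -0.157 to 0.041 in different mice (mean -0.043). The gates were compared with limma 3.58.1 in R 4.3.3, with 1 coefficient per gate over all 9 arrays, no block, no filter, 9.49 total degrees of freedom and Benjamini-Hochberg adjustment over all genes per comparison, and a call was an adjusted p under 0.05. The test was checked on simulated data. Python 3.11.15 with numpy 2.4.6, pandas 2.3.3 and matplotlib 3.10.9 made the tables and plots.

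The members and all gene lists were chosen with earlier results of these data known. The lists are Schwann lineage, myelin regulators, sphingolipid and fatty acid enzymes, axon contact and basal lamina, oligodendrocyte, neuron, melanocyte, endothelial, pericyte and smooth muscle, keratinocyte, leukocyte, dermal papilla and dermal fibroblast genes; some genes of these lists are not analysed here. All members were to be named, and of the first 5 lists up to 5 genes with the lowest p in R3 against R2 and the one with the lowest p in R2 against R1, the 10 genes most correlated with the members, and Prom1 and Sox2. Alternatives were the mouse as a block, leaving out each array, the 6 arrays of a comparison alone, centring on the median, quantile normalization again, the mean of a gene's probe sets, genes above the median gene, a trend and robust variance, and, added after seeing the data, every probe set singly.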

Additional observations from a re-analysis of the deposited data

How the results depend on the processing

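Over the alternatives, 1534 of 1623 member differences kept their side of the threshold or, where uncalled, moved by less than the spread; 37 uncalled differences moved by more, 34 lost and 18 gained a call. Counted across these classes, 39 uncalled differences changed sign, and no called member did. With the mouse as a block, 23 members were higher in R3 against R2, 22 were higher in R3 against R1, and 10 were lower in R2 against R1, where Igsf11 lost its call. Leaving out 1 array gave 22 to 24, 21 to 23 and 6 to 10 members; the last count, 11 with all arrays, was 7 without the R2 array of mouse 5, 6 without the R1 array of mouse 2 and 7 without the R1 array of mouse 5, and Mbp, Igsf11, Bcas1, Scn7a and Nkain2 lost calls there. Among genes above the median gene, 16 members were tested and the counts were 12, 10 and 7. The median log2 difference of these brighter members was -0.64 in R2 against R1, so it describes another set of members than the full list. Over all genes, leaving out 1 array gave 317 to 507 genes lower in R3 against R2 (557 with all arrays; 357 without the R3 array of mouse 2, 336 without that of mouse 4, and 317 and 331 without the R2 arrays of mice 2 and 4) and 804 to 1279 higher in R2 against R1 (1254 with all arrays; 822 and 804 without the R2 arrays of mice 2 and 4). Median centring shifted the median of all genes to 0.07 and 0.08 in the R3 comparisons and gave 448 genes higher and 428 lower in R3 against R2 (358 and 557 as deposited) and 1839 higher and 1570 lower in R3 against R1 (1438 and 1968); a second quantile normalization gave 438 and 426 in R3 against R2. Cldn19, Mag, Ugt8a and other members with dim arrays have folds that the background limits.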
